A study of Mus musculus with 8 samples.

Results

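The insulin-like growth factor (IGF) axis was followed in cells of MCa-P1362, a mouse mammary tumour line from a Balb/c female. Its 10 members here were 2 ligands (Igf1 and Igf2), 2 receptors (Igf1r and Igf2r) and 6 binding proteins (Igfbp2 to Igfbp7), chosen by gene name out of 24421 genes in the deposited tables. The line was sorted into cells with and without the epithelial surface protein EpCAM, and each fraction was measured under the labels monoculture and coculture. That gave 4 groups of 2 libraries each, namely monoculture EpCAM+, monoculture EpCAM-, coculture EpCAM+ and coculture EpCAM-. All groups came from the same line, kept in high-glucose DMEM with fetal bovine serum, with no drug or allele in the labels. Sorted cells were frozen straight away or cultured for a passage beforehand, and the labels do not say which of these each culture label stands for. No label states that the paired libraries of a group are separate cultures, and the p-values therefore rest on a spread that may be technical.

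As background, IGF1 and IGF2 are secreted growth factors that activate the receptor tyrosine kinase IGF1R, which signals through insulin receptor substrates to PI3K, AKT and MAP kinases. IGF2R has no kinase, removes IGF2 from the cell surface and carries lysosomal enzymes tagged with mannose 6-phosphate. The binding proteins hold IGFs outside cells and lengthen their life or keep them from the receptor, and proteases release them. In the mammary gland, IGF1 made by the stroma acts on the epithelium during duct growth.

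Levels are FPKM, fragments scaled for gene length and library size, so genes can be set side by side. The 8 libraries had 10634 to 11119 genes at 1 FPKM or more. Their depths could be compared only with each other. The ratio at which values of low genes pile up put them at 0.911 to 1.17 times that of the first monoculture EpCAM+ library. These ratios are rough, since in the other libraries the most common ratio was shared by only 11 to 31 genes, out of 110 to 268 compared. The 10 epithelial markers summed to 9732 to 10642 FPKM in EpCAM+ libraries and to 19.3 to 34.8 FPKM in EpCAM- libraries. The 12 stromal markers summed to 19.5 to 227 FPKM in EpCAM+ libraries and to 13141 to 14185 FPKM in EpCAM- libraries. The 8 leukocyte and macrophage markers summed to 13.5 to 19.6 FPKM in EpCAM+ libraries and to 5.56 to 6.39 FPKM in EpCAM- libraries. Most of that was Cd14, a receptor for bacterial products, with group means of 12.8 FPKM in monoculture EpCAM+ cells, 5.02 FPKM in monoculture EpCAM- cells, 18.2 FPKM in coculture EpCAM+ cells and 5.34 FPKM in coculture EpCAM- cells. Cd68 had group means of 0.554 to 1.29 FPKM, and Ptprc, the pan-leukocyte marker, of at most 0.00276 FPKM. The 5 endothelial markers summed to 0.147 to 1.23 FPKM. Changes were tested with limma on log2(FPKM + 1) over 12012 genes, and a gene was called at a Benjamini-Hochberg adjusted p under 0.05. Fold changes on that scale understate the change of low genes. Among the calls, higher ones made up 63.1% for EpCAM+ against EpCAM- in monoculture and 67.9% in coculture. Scaling by the median of ratios moved these shares to 50.5% and 49.8%, and shifted the median of all genes by -0.22 and -0.26 on the log2 scale. For monoculture against coculture in EpCAM+ cells, 32.0% of the calls were higher, against 46.5% with the median of ratios and 54.7% with quantile normalization. In bulk RNA of this kind, fewer cells of a type and less RNA per cell cannot be told apart.

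Between EpCAM+ and EpCAM- cells the axis split by direction, with Igf2r, Igfbp3, Igfbp4 and Igfbp5 higher in EpCAM+ cells and Igf1, Igf1r, Igfbp6 and Igfbp7 lower, in both cultures. The Igf1 difference in coculture was small, at -0.15 on values of at most 0.164 FPKM, and its call was lost in some alternative fits. Of the 9 members that passed the filter on low values, 9 were called in monoculture, where 87.9% of all genes were, and 8 in coculture, where 87.2% were. In monoculture 4 were higher and 5 lower in EpCAM+ cells, beside 55.4% and 32.4% of all genes, and in coculture 4 were higher and 4 lower, beside 59.2% and 28.0%. The members' counts at adjusted p alone were thus near the background. Values of the 2 fractions did not overlap for 93.3% of all genes in monoculture and 93.4% in coculture. With a change of at least 2-fold added, 7 of 9 were called in monoculture and 5 of 9 in coculture, against 28.1% and 26.5% of all genes. Igf2 was the member that did not pass the filter. Igf1 and Igfbp2 passed it only through monoculture EpCAM- cells, and Igfbp5 only through EpCAM+ cells. Their calls against the groups where they were low are therefore not independent of the filter. The median log2 fold change of the 9 was -0.79 in monoculture and -0.09 in coculture, beside 0.23 and 0.26 over all genes.

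**Figure D1:**
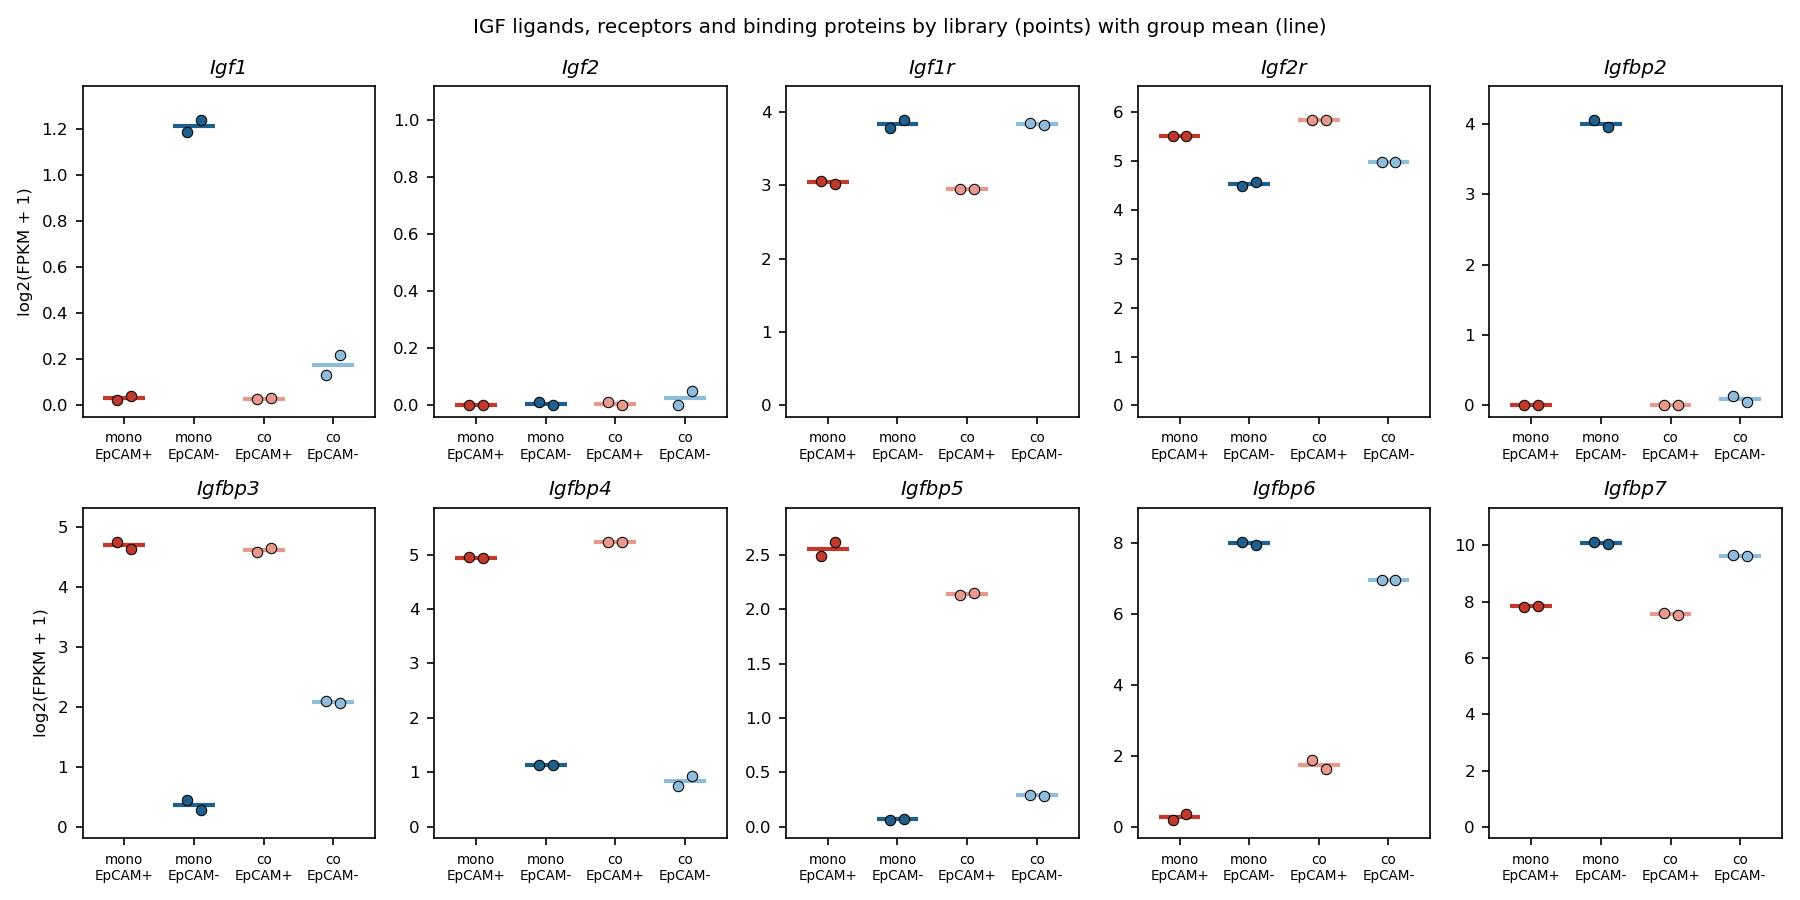
Level of each of the 10 members as log2(FPKM + 1) in every library (points) with the group mean (line), for monoculture EpCAM+, monoculture EpCAM-, coculture EpCAM+ and coculture EpCAM-. Igfbp2 stands at 15.6 and 14.6 FPKM in monoculture EpCAM- cells and at or near 0 in the other groups, and Igfbp6 is at 123.4 FPKM or more in all 4 EpCAM- libraries.

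The ligands were low. Igf1, whose gene lies at chr10:87858265-87937042 on the plus strand, read 0.0173 and 0.0285 FPKM in monoculture EpCAM+ cells and 1.27 and 1.36 FPKM in monoculture EpCAM- cells. In coculture it read 0.0190 and 0.0211 FPKM in EpCAM+ cells and 0.0951 and 0.164 FPKM in EpCAM- cells. The monoculture EpCAM- libraries were the only ones above 1 FPKM, and neither pair of fractions overlapped. Igf1 passed the filter through the monoculture EpCAM- libraries alone, so its tests with that group are not independent of the filter. The mean of 1.31 ± 0.0598 FPKM in monoculture EpCAM- cells was 10.1 times the 0.130 ± 0.0491 FPKM in coculture EpCAM- cells (SD, n = 2 each). On the log2 scale Igf1 was lower in EpCAM+ cells, at -1.18 ± 0.05 (SE) in monoculture, with adjusted p = 1.5e-07 (limma, Benjamini-Hochberg). The difference in coculture was -0.15 ± 0.05, with adjusted p = 0.0315 by the same test, and it did not pass with only the 4 coculture libraries in the fit (adjusted p = 0.0560) nor without either coculture EpCAM+ library (0.0808 and 0.0764) or the second coculture EpCAM- library (0.164). Igf2, the fetal growth factor imprinted to be read from the paternal allele, lies at chr7:142650766-142666816 on the minus strand. It was listed at 0 in 5 of the 8 libraries, and its highest value was 0.0346 FPKM, in the second coculture EpCAM- library. No test or fold is given for it.

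Both receptors were well above the ligands in every group and differed between the fractions in opposite directions. Igf1r, at chr7:67952827-68233668 on the plus strand, read 7.30 and 7.10 FPKM in monoculture EpCAM+ cells and 12.7 and 13.7 FPKM in monoculture EpCAM- cells. The coculture values were 6.73 and 6.69 FPKM in EpCAM+ cells and 13.4 and 13.1 FPKM in EpCAM- cells. All EpCAM+ libraries were below all EpCAM- libraries, and the order of the 2 EpCAM- groups could not be told, since their libraries overlapped. The log2 fold change of EpCAM+ against EpCAM- was -0.79 ± 0.04 (SE) in monoculture and -0.88 ± 0.04 in coculture, with limma adjusted p of 5.5e-07 and 3.1e-07 (Benjamini-Hochberg). Between cultures Igf1r was not called in EpCAM+ cells, with a log2 fold change of 0.09 ± 0.04 and limma adjusted p = 0.130. That call depended on scaling: the difference was 0.14 with adjusted p = 0.0425 under the median of ratios and 0.22 with adjusted p = 0.00575 under quantile normalization (limma).

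Igf2r, at chr17:12682406-12769664 on the minus strand, read 45.0 and 44.9 FPKM in monoculture EpCAM+ cells and 21.6 and 22.8 FPKM in monoculture EpCAM- cells. In coculture the values were 56.2 and 56.3 FPKM in EpCAM+ cells and 30.7 and 30.5 FPKM in EpCAM- cells. The 4 groups did not overlap, with coculture EpCAM+ highest and monoculture EpCAM- lowest. EpCAM+ cells were higher by 0.99 ± 0.03 in monoculture and 0.86 ± 0.03 in coculture on the log2 scale (SE), with limma adjusted p of 9.1e-09 and 2.4e-08. Refitted under scaling by the median of ratios, these differences were 0.75 and 0.58. Monoculture was below coculture in both fractions, at -0.32 ± 0.03 in EpCAM+ cells and -0.44 ± 0.03 in EpCAM- cells, with limma adjusted p of 7.9e-05 and 5.8e-06. The ratio of the 2 receptor messages also differed between the fractions. Igf2r was 6.24 ± 0.110 times Igf1r in monoculture EpCAM+ cells and 1.68 ± 0.0354 times in monoculture EpCAM- cells (SD, n = 2 each). The ratio was 8.39 ± 0.0489 in coculture EpCAM+ cells and 2.31 ± 0.0193 in coculture EpCAM- cells.

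The binding proteins carried the widest differences. The promoters of 4 of them are shown, as examples from both sides of the contrast in monoculture: Igfbp3 and Igfbp4, higher in EpCAM+ cells, and Igfbp2 and Igfbp6, lower there. Igfbp2 was not called between the fractions in coculture. Each runs from 250 bases before to 50 bases after the start that RefSeq gives on build GRCm38.p6, 5′ to 3′ on the gene's strand. All 10 members were found in that table. They lie at chr11:7213874-7214173 (minus strand) for Igfbp3, chr11:99040994-99041293 (plus) for Igfbp4, chr1:72824230-72824529 (plus) for Igfbp2, whose other listed promoter is not printed, and chr15:102143936-102144235 (plus) for Igfbp6. Capitals mark, on either strand, every TATAAA (the letters of a TATA box), every GGGCGG (a GC box) and every CAGGTG (an E-box).
Igfbp3: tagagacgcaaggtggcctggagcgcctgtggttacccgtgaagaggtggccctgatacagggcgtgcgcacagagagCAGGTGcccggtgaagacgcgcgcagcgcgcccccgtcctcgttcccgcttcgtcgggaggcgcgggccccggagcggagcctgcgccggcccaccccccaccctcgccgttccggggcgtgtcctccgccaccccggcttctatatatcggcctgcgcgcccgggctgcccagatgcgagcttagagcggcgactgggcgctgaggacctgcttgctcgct
Igfbp4: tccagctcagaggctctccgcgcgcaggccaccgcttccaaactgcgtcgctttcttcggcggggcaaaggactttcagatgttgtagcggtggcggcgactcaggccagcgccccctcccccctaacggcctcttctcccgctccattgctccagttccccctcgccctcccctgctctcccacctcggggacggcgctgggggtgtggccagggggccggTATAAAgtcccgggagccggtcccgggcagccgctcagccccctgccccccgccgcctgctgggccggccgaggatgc
Igfbp2: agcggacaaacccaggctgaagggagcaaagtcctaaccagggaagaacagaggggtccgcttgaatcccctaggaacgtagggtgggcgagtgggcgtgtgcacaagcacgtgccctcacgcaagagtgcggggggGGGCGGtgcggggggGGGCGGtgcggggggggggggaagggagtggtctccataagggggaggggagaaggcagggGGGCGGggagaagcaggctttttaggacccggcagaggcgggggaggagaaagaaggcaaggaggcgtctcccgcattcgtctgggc
Igfbp6: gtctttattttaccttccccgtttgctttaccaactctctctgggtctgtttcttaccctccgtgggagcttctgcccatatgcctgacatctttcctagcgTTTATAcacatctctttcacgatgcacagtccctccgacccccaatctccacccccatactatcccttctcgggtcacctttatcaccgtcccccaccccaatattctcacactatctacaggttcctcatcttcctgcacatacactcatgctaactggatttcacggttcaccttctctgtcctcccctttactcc

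The Igfbp4 promoter has TATAAA 28 bases before the start, and the Igfbp6 promoter has it on the opposite strand 148 bases before. Of 32851 mouse promoters of this length, 13.6% held TATAAA on either strand, 35.7% held GGGCGG and 20.2% held CAGGTG. The Igfbp2 promoter held GGGCGG 3 times and the Igfbp3 promoter held CAGGTG 1 time. CpG pairs numbered 37 in Igfbp3 and 27 in Igfbp4, against 18 in Igfbp2 and 8 in Igfbp6, with a median of 7 over all promoters. The binding proteins whose promoters are not printed went the other way. Igfbp5, higher in EpCAM+ cells, had 10, and Igfbp7, lower there, had 33. The other listed promoter of Igfbp2 had 14. These are descriptions of the letters, and no binding or methylation was measured.

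Igfbp3, which encodes the main carrier of IGFs in blood, lies at chr11:7206086-7213923. It read 26.1 and 23.8 FPKM in monoculture EpCAM+ cells and 0.371 and 0.220 FPKM in monoculture EpCAM- cells. In coculture it read 23.1 and 24.1 FPKM in EpCAM+ cells and 3.30 and 3.21 FPKM in EpCAM- cells. The 2 EpCAM+ groups overlapped, while the coculture EpCAM- libraries stood 11.0 times above the monoculture EpCAM- ones. EpCAM+ cells were higher by 4.33 ± 0.07 in monoculture and 2.53 ± 0.07 in coculture on the log2 scale (SE), with limma adjusted p of 2.4e-10 and 5.9e-09. Monoculture against coculture gave -1.72 ± 0.07 in EpCAM- cells, with adjusted p = 3.9e-07 (limma), and 0.08 ± 0.07 in EpCAM+ cells, with adjusted p = 0.373.

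Igfbp4, a binding protein that restrains IGFs until the protease PAPP-A cuts it, lies on the same chromosome at chr11:99041244-99054392. Its values were 30.0 and 29.5 FPKM in monoculture EpCAM+ cells and 1.201 and 1.196 FPKM in monoculture EpCAM- cells. Coculture gave 36.5 and 36.7 FPKM in EpCAM+ cells and 0.681 and 0.920 FPKM in EpCAM- cells. No groups overlapped, and the order of the cultures was opposite in the fractions, monoculture being the lower in EpCAM+ cells and the higher in EpCAM- cells. The fraction difference was 3.81 ± 0.06 in monoculture and 4.39 ± 0.06 in coculture on the log2 scale (SE), with limma adjusted p of 2.7e-10 and 1.4e-10. Monoculture against coculture gave -0.29 ± 0.06 in EpCAM+ cells and 0.29 ± 0.06 in EpCAM- cells, with limma adjusted p of 0.00549 and 0.00373. With a pseudocount of 0.1 the EpCAM+ difference did not pass (adjusted p = 0.0579, limma). The median log2 fold change of 780 genes on chromosome 11 was 0.54 in monoculture and 0.52 in coculture. These were only the tested genes of higher level. The medians of 0.23 and 0.26 over all tested genes are thus not from a like set. With the same selection, chromosome 3 had 0.55 in monoculture and 0.57 in coculture, and chromosome 4 had 0.55 in both. Chromosome 7 came next, at 0.36 in monoculture and 0.31 in coculture.

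Igfbp5, a binding protein that rises in the involuting mammary gland, was the lowest of the 3 that were higher in EpCAM+ cells. It read 4.62 and 5.14 FPKM in monoculture EpCAM+ cells and 0.0474 and 0.0518 FPKM in monoculture EpCAM- cells. The coculture values were 3.38 and 3.43 FPKM in EpCAM+ cells and 0.228 and 0.216 FPKM in EpCAM- cells. None of the 4 groups overlapped. EpCAM+ cells were higher by 2.48 ± 0.06 in monoculture and 1.85 ± 0.06 in coculture on the log2 scale (SE), with limma adjusted p of 2.0e-09 and 1.3e-08. Igfbp5 passed the filter through EpCAM+ libraries alone, so these tests between the fractions are not independent of the filter. Monoculture was above coculture in EpCAM+ cells by 0.42 ± 0.06 and below it in EpCAM- cells, at -0.22 ± 0.06, with limma adjusted p of 6.1e-04 and 0.00973. Its gene, at chr1:72857932-72874884 on the minus strand, lies tail to tail with Igfbp2, at chr1:72824503-72852474 on the plus strand. The gap is 5457 bases with no protein-coding gene between them.

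Igfbp2, which encodes a binding protein common in fetal tissue and in tumours, had a pattern unlike its neighbour's. It was listed at 0 in all 4 EpCAM+ libraries. Monoculture EpCAM- cells had 15.6 and 14.6 FPKM, and coculture EpCAM- cells had 0.0952 and 0.0335 FPKM. The mean in monoculture EpCAM- cells was 235 times that in coculture EpCAM- cells, and the libraries did not overlap. Igfbp2 passed the filter through the monoculture EpCAM- libraries alone, so its tests with that group are not independent of the filter. On the log2(FPKM + 1) scale monoculture was higher than coculture in EpCAM- cells by 3.92 ± 0.06 (SE), with adjusted p = 2.4e-09 (limma), and no fold is given against the EpCAM+ cells at 0. The fitted difference of EpCAM+ from EpCAM- cells was -4.01 ± 0.06 in monoculture, with limma adjusted p = 1.3e-10. In coculture it was -0.09 ± 0.06, with limma adjusted p = 0.162, and it passed with a pseudocount of 0.1 (-0.69, adjusted p = 0.00953).

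Igfbp6, which prefers IGF2 over IGF1, lies at chr15:102144362-102149511 on the plus strand. It read 0.136 and 0.275 FPKM in monoculture EpCAM+ cells and 260.5 and 245 FPKM in monoculture EpCAM- cells. Coculture gave 2.68 and 2.10 FPKM in EpCAM+ cells and 123.4 and 123.5 FPKM in EpCAM- cells. The groups did not overlap, and monoculture was the lower culture in EpCAM+ cells and the higher one in EpCAM- cells. EpCAM+ cells were lower, at -7.72 ± 0.08 in monoculture and -5.20 ± 0.08 in coculture on the log2 scale (SE), with limma adjusted p of 3.8e-11 and 3.2e-10. Monoculture against coculture gave 1.03 ± 0.08 in EpCAM- cells and -1.49 ± 0.08 in EpCAM+ cells, with limma adjusted p of 2.2e-05 and 7.0e-06. The EpCAM+ difference is described further beside the stromal markers.

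Igfbp7, a secreted relative that binds IGFs weakly and also binds insulin, was the most abundant member in every group. The gene lies at chr5:77349240-77408041 on the minus strand. It read 225 and 230.2 FPKM in monoculture EpCAM+ cells and 1116 and 1066 FPKM in monoculture EpCAM- cells. In coculture it read 190.2 and 183 FPKM in EpCAM+ cells and 799 and 783 FPKM in EpCAM- cells. Its mean ranked 24th of 24421 genes in monoculture EpCAM- cells and 43rd in coculture EpCAM- cells, and no groups overlapped. EpCAM+ cells were lower, at -2.25 ± 0.03 in monoculture and -2.08 ± 0.03 in coculture on the log2 scale (SE), with limma adjusted p of 8.4e-11 and 1.4e-10. Monoculture was higher than coculture in both fractions, by 0.29 ± 0.03 in EpCAM+ cells and 0.46 ± 0.03 in EpCAM- cells, with limma adjusted p of 1.4e-04 and 4.8e-06.

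Summed, the 6 binding proteins reached 288 ± 1.87 FPKM in monoculture EpCAM+ cells and 1360.4 ± 46.8 FPKM in monoculture EpCAM- cells (SD, n = 2 each). The sums were 253 ± 4.59 FPKM in coculture EpCAM+ cells and 919 ± 11.4 FPKM in coculture EpCAM- cells. Igfbp7 made up 73.9% to 86.1% of the sum in the 4 groups. Without it the makeup differed between the fractions. Igfbp3 and Igfbp4 were 41.7% and 49.7% of the rest in monoculture EpCAM+ cells and 35.8% and 55.4% in coculture EpCAM+ cells. Igfbp6 was 93.8% of the rest in monoculture EpCAM- cells and 96.6% in coculture EpCAM- cells. Igfbp2 added 5.60% ± 0.0302 in monoculture EpCAM- cells (SD, n = 2).

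**Figure D2:**
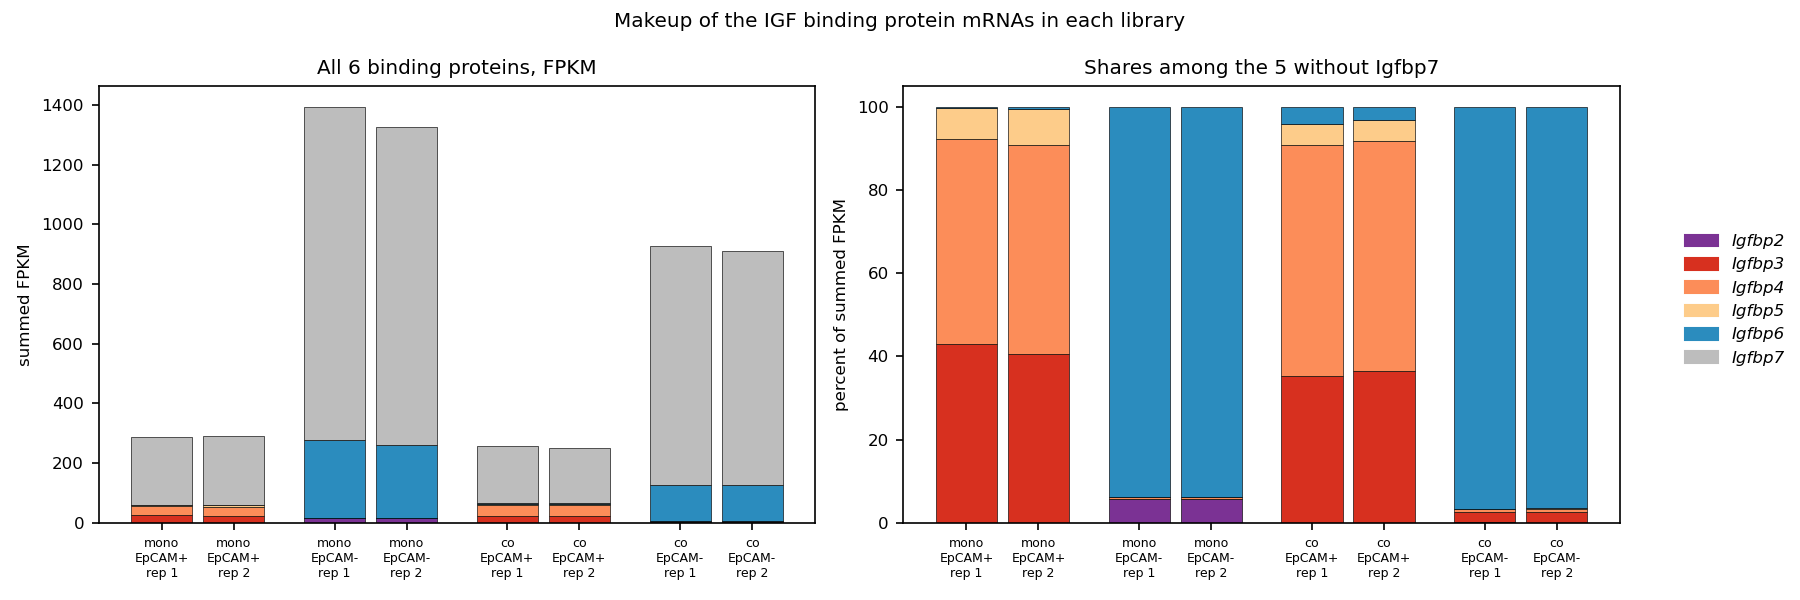
Left, the FPKM of the 6 binding proteins stacked for each library, and right, the percent that each of the 5 without Igfbp7 makes of their sum. The bars of EpCAM+ libraries are mostly Igfbp3 and Igfbp4 on the right, and those of EpCAM- libraries are mostly Igfbp6, which is 93.8% of the rest in monoculture and 96.6% in coculture.

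Low levels in a sorted fraction were set beside markers of the other fraction, since stromal markers were not at the same level in all EpCAM+ libraries. In EpCAM+ cells the 12 stromal markers had a median of 0.121% and 0.133% of their EpCAM- level in the monoculture libraries, and of 1.71% in each coculture library. Igfbp6 in EpCAM+ cells was 0.0813% of its EpCAM- level in monoculture, where group means of single stromal markers ranged from 0.0796% to 0.498%. In coculture it was 1.94%, where they ranged from 1.38% to 2.03%, so the group means of Igfbp6 lay inside the marker range in both cultures. Of the 4 libraries, 2 lay outside it. The first monoculture EpCAM+ library was at 0.0539%, below its lowest marker at 0.0762%, and the first coculture EpCAM+ library was at 2.17%, above its highest marker at 2.05%. When each library's stromal share was subtracted, Igfbp6 came to 0 in both monoculture EpCAM+ libraries and to 0.573 and 0 FPKM in the coculture EpCAM+ libraries. Its culture difference in EpCAM+ cells was then -0.33, with adjusted p = 0.161 (limma). Igfbp7 in EpCAM+ cells, at 20.9% of the EpCAM- level in monoculture and 23.6% in coculture, was far above that range. Igf1 lay above it as well, at 1.74% in monoculture and 15.4% in coculture, on values below 0.03 FPKM.

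In the other direction, the 10 epithelial markers in EpCAM- cells had library medians of 0.170% to 0.211% of their EpCAM+ level in monoculture and 0.256% to 0.266% in coculture. Igfbp3 in EpCAM- cells was at 1.18% of its EpCAM+ level in monoculture and 13.8% in coculture. Igfbp4 was at 4.03% in monoculture and 2.19% in coculture, and Igfbp5 at 1.02% in monoculture and 6.52% in coculture. In single libraries no epithelial marker was above 0.304% in monoculture or 0.437% in coculture. All 3 binding proteins were above the markers in each of the 4 EpCAM- libraries.

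**Figure D3:**
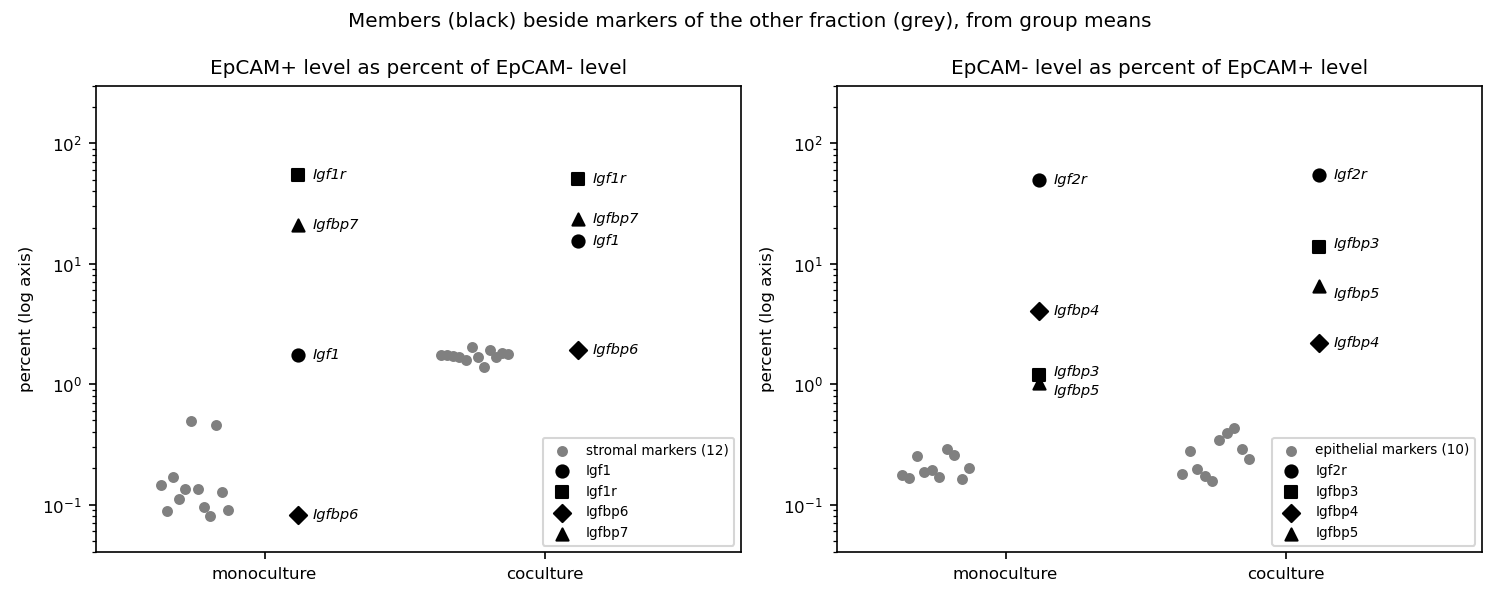
Mean level in a fraction as percent of the mean level in the other fraction (log axis), for monoculture and coculture, with markers of the other fraction in grey and members in black. On the left, Igfbp6 in EpCAM+ cells sits among the 12 stromal markers in both cultures, at 0.0813% and 1.94%. On the right, Igfbp3, Igfbp4 and Igfbp5 in EpCAM- cells sit above all 10 epithelial markers.

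Between the cultures, 5 of the 9 tested members were called in EpCAM+ cells, where 51.4% of all genes were, and 8 of 9 in EpCAM- cells, where 62.7% were. In EpCAM+ cells 2 were higher in monoculture and 3 lower, beside 16.4% and 34.9% of all genes, and in EpCAM- cells 5 were higher and 3 lower, beside 32.4% and 30.3%. Libraries of the 2 cultures did not overlap for 77.4% of all genes in EpCAM+ cells and 80.0% in EpCAM- cells. With a change of at least 2-fold, 1 member was called in EpCAM+ cells (Igfbp6, lost after subtraction of the stromal share) and 4 in EpCAM- cells (Igf1, Igfbp2, Igfbp3 and Igfbp6). The background was 1.94% of all genes in EpCAM+ cells and 4.52% in EpCAM- cells. Igf1 and Igfbp2 had passed the filter only through monoculture EpCAM- cells, so their calls in EpCAM- cells are not independent of it. Monoculture was the higher culture in EpCAM- cells for Igf1, Igfbp2, Igfbp4, Igfbp6 and Igfbp7, and the lower for Igf2r, Igfbp3 and Igfbp5. The median log2 fold change of the members was 0.00 in EpCAM+ cells and 0.29 in EpCAM- cells, beside -0.06 and 0.00 over all genes. The culture effect itself was tested for a difference between the fractions with an interaction term, which was called for 8 of the 9 members and for 65.2% of all genes. Of all interaction calls 39.9% were positive, against 53.4% under quantile normalization. Igf1r was the member not called, with an interaction of 0.09 ± 0.06 (SE) and limma adjusted p = 0.225. The 4 comparisons share groups with each other, so their results are given side by side and not as separate evidence.

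**Figure D4:**
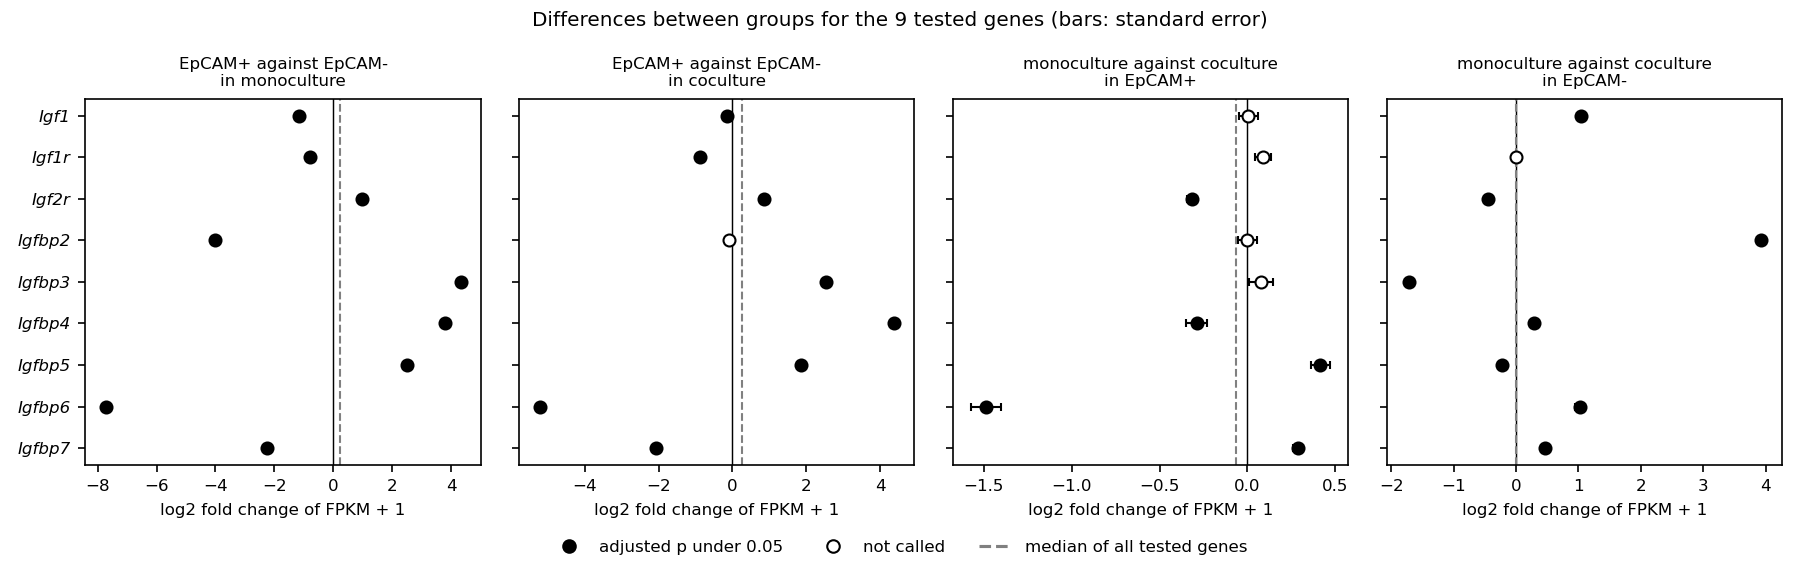
Log2 fold change of FPKM + 1 with its standard error for the 9 tested members, in monoculture and coculture for EpCAM+ against EpCAM- and in EpCAM+ and EpCAM- cells for monoculture against coculture. Filled points passed an adjusted p under 0.05, and the dashed line is the median of all 12012 genes. Igfbp6 reaches -7.72 at the far left of the monoculture panel, and Igfbp2 reaches 3.92 in the EpCAM- culture panel.

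Genes whose profile over the 8 libraries was nearest to that of a member were found by the root mean square difference between centred log2 profiles, among 9266 genes, and the 2 nearest are named. For Igfbp6 they were Tagln, an actin-binding protein of smooth muscle and myofibroblasts, at a difference of 0.10, and Cd248, the stromal surface protein endosialin, at 0.19. Rspo2, a secreted enhancer of Wnt signalling, and Aqp1, a water channel, were nearest to Igfbp2, at 0.18 and 0.28. Rspo2 averaged 13.3 FPKM in monoculture EpCAM- cells and 0.316 FPKM in coculture EpCAM- cells. Vegfc, a lymphatic growth factor, and Arl4c, a small GTPase, were nearest to Igfbp3, at 0.22 and 0.23. The remaining pairs were Gpm6b and Stap2 for Igfbp4, Arhgap42 and E2f8 for Igfbp5, Zdhhc9 and Hacd1 for Igfbp7, Dok4 and Zbtb4 for Igf1, Picalm and Map4 for Igf1r, and Runx2 and Taf15 for Igf2r. Their differences were between 0.04 and 0.10. The added 1 flattens genes of low level, so a small difference there does not mean a like fold change. Dok4 averaged 2.60 FPKM in coculture EpCAM+ cells and 2.58 FPKM in coculture EpCAM- cells, where Igf1 averaged 0.0200 and 0.130 FPKM. Arhgap42 averaged 28.8 and 4.72 FPKM in monoculture EpCAM+ and EpCAM- cells, where Igfbp5 averaged 4.88 and 0.0496 FPKM. With 4 groups, many genes can share a profile, and the measure says nothing of a common control.

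Genes that act with the axis were followed through 5 lists. Of 29 tested genes of receptor signalling, 15 were higher and 6 lower in EpCAM+ cells in monoculture, and 19 were higher and 5 lower in coculture. Over all genes 55.4% were higher and 32.4% lower in monoculture, and 59.2% and 28.0% in coculture. The list medians were 0.38 and 0.37 on the log2 scale, beside 0.23 and 0.26 over all genes. Irs1, the docking protein of the receptor, averaged 27.1 ± 0.232 FPKM in EpCAM+ cells and 6.85 ± 0.173 FPKM in EpCAM- cells in monoculture (SD, n = 2 each). The log2 fold change of Irs1 was 1.84 ± 0.04 (SE), with limma adjusted p = 1.4e-09, and 1.96 ± 0.04 in coculture, with adjusted p = 1.1e-09. Its relative Irs2 was lower in EpCAM+ cells, at -0.86 ± 0.06 in monoculture and -1.80 ± 0.06 in coculture, with limma adjusted p of 1.8e-06 and 1.9e-08. Grb10, an adaptor that dampens insulin and IGF receptors, averaged 0.0630 FPKM in EpCAM+ cells and 57.0 FPKM in EpCAM- cells in monoculture. Coculture gave Grb10 at 0.702 FPKM in EpCAM+ cells and 48.4 FPKM in EpCAM- cells, so the EpCAM+ level was 0.111% and 1.45% of the EpCAM- level, inside the range of the stromal markers' group means in both cultures. Grb14, a related adaptor, was higher in EpCAM+ cells by 2.13 ± 0.08 in monoculture and 1.24 ± 0.08 in coculture, with limma adjusted p of 3.2e-08 and 1.1e-06. Socs2, a suppressor of growth hormone signalling, was higher by 1.82 ± 0.04 in monoculture and 2.04 ± 0.04 in coculture, with limma adjusted p of 1.5e-09 and 8.3e-10. Insr, the insulin receptor, chosen after its values were seen, averaged 8.07 FPKM in EpCAM+ cells and 3.93 FPKM in EpCAM- cells in monoculture, opposite in direction to Igf1r. The Insr difference was 0.88 ± 0.05 in monoculture and 1.08 ± 0.05 in coculture, with limma adjusted p of 3.2e-07 and 1.0e-07.

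Among 13 tested proteases and partners, 5 were higher and 6 lower in EpCAM+ cells in monoculture, and 4 were higher and 8 lower in coculture, beside 55.4% higher and 32.4% lower of all genes in monoculture and 59.2% and 28.0% in coculture. The list medians were -0.15 and -0.60, beside 0.23 and 0.26 over all genes. Plau, the urokinase that activates plasmin, averaged 555 ± 3.02 FPKM in EpCAM+ cells and 44.5 ± 0.996 FPKM in EpCAM- cells in monoculture (SD, n = 2 each). Its log2 fold change was 3.61 ± 0.02 (SE) there and 3.44 ± 0.02 in coculture, with limma adjusted p of 2.9e-12 and 4.8e-12. Htra1, a secreted serine protease, was lower in EpCAM+ cells, at -2.59 ± 0.03 in monoculture and -3.62 ± 0.03 in coculture, with limma adjusted p of 3.6e-11 and 8.1e-12. Mmp2, a gelatinase, was lower, at -5.40 ± 0.08 in monoculture and -4.58 ± 0.08 in coculture, with limma adjusted p of 1.4e-10 and 3.7e-10. In EpCAM+ cells Mmp2 stood at 0.189% and 2.07% of its EpCAM- level in monoculture and coculture. That was inside the range of the stromal markers' group means in monoculture and just above it in coculture. Adam12, a membrane protease that can cut binding proteins, was higher in monoculture EpCAM+ cells by 1.62 ± 0.04, with limma adjusted p = 1.6e-09. Ctsd, a lysosomal protease, was higher in coculture EpCAM+ cells by 1.15 ± 0.02, with limma adjusted p = 3.1e-10. Stc2, an inhibitor of PAPP-A, was lower in monoculture than in coculture, at -0.75 ± 0.07 in EpCAM+ cells and -1.52 ± 0.07 in EpCAM- cells, with limma adjusted p of 9.0e-05 and 8.8e-07.

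A list of 12 genes drawn up around the control of Igf2 and its message also held Cdkn1c, which is not such a regulator. Of the 12, 7 passed the filter, Cdkn1c among them. In EpCAM+ cells 5 of these were higher and 2 lower in monoculture, and 4 were higher and 3 lower in coculture. The background over all genes was 55.4% higher and 32.4% lower in monoculture and 59.2% and 28.0% in coculture. The list medians were 0.78 and 0.72, beside 0.23 and 0.26 over all genes. H19, the RNA read from the maternal allele beside Igf2, had a highest group mean of 0.0348 FPKM and was not tested. The 2 tested IGF2 mRNA-binding proteins differed in direction. Igf2bp2 averaged 26.7 ± 0.154 FPKM in EpCAM+ cells and 7.35 ± 0.309 FPKM in EpCAM- cells in monoculture, a log2 fold change of 1.73 ± 0.05 (SE) with limma adjusted p = 5.0e-09. Igf2bp3 averaged 0.164 ± 0.0150 FPKM in EpCAM+ cells and 7.54 ± 0.250 FPKM in EpCAM- cells in monoculture, at -2.88 ± 0.05 with limma adjusted p = 3.4e-10. In coculture the log2 fold changes were 1.29 ± 0.05 for Igf2bp2 and -2.84 ± 0.05 for Igf2bp3, with limma adjusted p of 3.4e-08 and 4.0e-10. Dis3l2, a nuclease that acts on uridylated RNAs, was higher in coculture EpCAM+ cells by 1.09 ± 0.06, and Ctcf, the insulator protein of the Igf2 and H19 locus, was higher in monoculture EpCAM+ cells by 0.91 ± 0.05 (limma adjusted p of 5.3e-07 and 2.7e-07). Plagl1, an imprinted zinc finger gene, was lower in monoculture EpCAM+ cells, at -1.30 ± 0.06, with limma adjusted p = 2.0e-07. Hmga2, a chromatin protein that favours Igf2bp2, was higher in monoculture than in coculture in EpCAM+ cells, by 0.86 ± 0.03, and lower in EpCAM- cells, at -0.56 ± 0.03, with limma adjusted p of 4.6e-07 and 1.5e-06.

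The second job of IGF2R, the sorting of lysosomal enzymes, was followed through 14 genes, all tested. In monoculture 3 were higher and 11 lower in EpCAM+ cells, and in coculture 4 were higher and 9 lower. The list medians were -0.82 and -0.33, opposite in sign to the Igf2r differences. The list mixes lysosomal enzymes with genes of the sorting itself, and these were not tested apart. All genes had 55.4% higher and 32.4% lower in monoculture and 59.2% and 28.0% in coculture, with medians of 0.23 and 0.26. Hexa, a lysosomal hexosaminidase, averaged 19.3 ± 0.253 FPKM in EpCAM+ cells and 107 ± 0.221 FPKM in EpCAM- cells in monoculture (SD, n = 2 each). The log2 fold change of Hexa was -2.42 ± 0.02 (SE) in monoculture and -1.15 ± 0.02 in coculture, with limma adjusted p of 1.7e-11 and 8.5e-10. Ctsb, a lysosomal protease, was lower in EpCAM+ cells, at -1.69 ± 0.02 in monoculture and -1.28 ± 0.02 in coculture, with limma adjusted p of 5.9e-11 and 2.8e-10. On the same side as Igf2r, Gga1 was higher by 0.16 ± 0.03 in monoculture and 0.53 ± 0.03 in coculture (limma adjusted p of 9.3e-04 and 4.8e-07). Gga3 was higher by 0.36 ± 0.06 in monoculture and Gnptg by 0.25 ± 0.05 in coculture (limma adjusted p of 5.2e-04 and 0.00286). Monoculture against coculture gave 1 higher and 9 lower in EpCAM+ cells, and 10 higher and 1 lower in EpCAM- cells, with medians of -0.29 and 0.25. The shares over all genes were 16.4% higher and 34.9% lower in EpCAM+ cells and 32.4% and 30.3% in EpCAM- cells, with medians of -0.06 and 0.00. Naglu, a lysosomal glucosaminidase, was higher in monoculture EpCAM- cells by 0.72 ± 0.05 with limma adjusted p = 1.3e-05. Ctsb was the member of the list that was lower there, at -0.35 ± 0.02, with limma adjusted p = 3.2e-06.

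The last list held insulin, growth hormone and genes related to the binding proteins. Igfbp1, Ins1, Ins2 and Gh were listed at 0 in all libraries, and 9 of the 15 genes were tested. In each culture 1 was higher and 8 were lower in EpCAM+ cells, with medians of -1.77 in monoculture and -1.48 in coculture. The same counts over all genes were 55.4% higher and 32.4% lower in monoculture and 59.2% and 28.0% in coculture, with medians of 0.23 and 0.26. Igfbpl1 and Ghr, chosen after their values were seen, stood on opposite sides. The gene that was higher was Igfbpl1, an IGFBP-like gene, at 1.90 FPKM in EpCAM+ cells and 0.0715 FPKM in EpCAM- cells in monoculture. The genes that were lower included Ghr, the growth hormone receptor, at 20.6 FPKM in EpCAM+ cells and 33.7 FPKM in EpCAM- cells in monoculture. Wisp2, a matricellular protein of the CCN family, whose N-terminal domain resembles that of the binding proteins, averaged 10.5 ± 0.659 FPKM in EpCAM+ cells and 319 ± 8.38 FPKM in EpCAM- cells in monoculture. Its log2 fold change there was -4.80 ± 0.04 (SE), with limma adjusted p = 9.7e-12. Wisp2 was also higher in monoculture than in coculture EpCAM- cells, by 1.96 ± 0.04, with limma adjusted p = 1.4e-08. The other CCN genes among the largest changes were Wisp1, at -2.85 ± 0.04 in monoculture and -3.19 ± 0.04 in coculture, and Ctgf, at -2.54 ± 0.02 in coculture (limma adjusted p of 1.6e-10, 1.0e-10 and 6.7e-12). Crim1, a membrane protein with an IGFBP-like motif, was higher in monoculture than in coculture in both fractions, by 0.72 ± 0.02 in EpCAM+ cells and 1.00 ± 0.02 in EpCAM- cells, with limma adjusted p of 4.7e-07 and 3.1e-08.

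**Figure D5:**
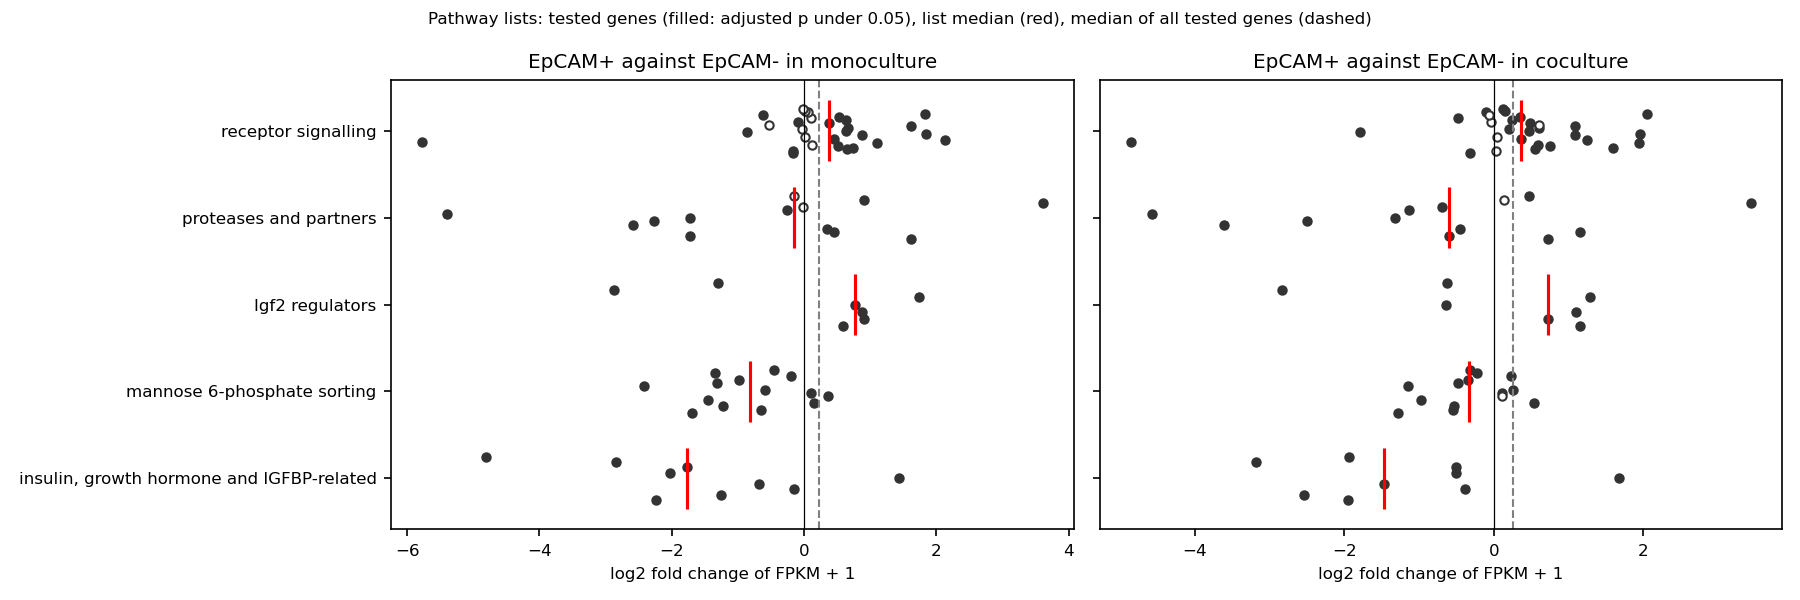
Log2 fold change of FPKM + 1, EpCAM+ against EpCAM-, for each tested gene of the 5 lists in monoculture (left) and coculture (right), filled where the adjusted p was under 0.05. Red bars are list medians and the dashed line is the median of all genes. The list of insulin, growth hormone and IGFBP-related genes has the lowest median in both panels, at -1.77 and -1.48.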

How the data were processed

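RNA of 8 libraries, 2 for each of 4 groups, was sequenced as 150 bp read pairs per the labels. The deposited values are FPKM per gene, which the authors made. Tools named in the submitters' processing notes, with no version, are HISAT2, HTSeq, edgeR, cutadapt, FastQC and SAMtools, and the build is mm10. No source used here gives the annotation, any scaling between libraries or the depth, so no counting interval is given.

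FPKM were transformed to log2(FPKM + 1), and the 12012 genes that reached 1 FPKM in 2 libraries or more were kept. A gene below 1 FPKM in a group passed only through other groups, and its tests against those are not independent of the filter. limma 3.58.1 in R 4.3.3 fitted the means of the 4 groups over all 8 libraries (4 residual degrees of freedom, eBayes with trend). P-values are two-sided and Benjamini-Hochberg adjusted over all genes tested. The smallest p that an exact test on 2 and 2 libraries allows is 0.333. The fit was also run on simulated data with normal noise and a small set of genes changed in coculture EpCAM+ cells alone. In the real data most genes differed between the fractions, so that run does not test the calls given here. Gene positions came from the GENCODE M21 annotation of GRCm38, the same assembly as mm10, and promoters from RefSeq (GRCm38.p6).

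The members and lists were chosen with earlier results of these data known. From each list the text names, per comparison, the 2 highest and 2 lowest called changes, or a part of these (genes outside this rule are marked in the text), among genes whose libraries did not overlap and whose higher group averaged 5 FPKM or more. Same-numbered libraries did not deviate together (correlations of -0.0726 to 0.0406), so replicate numbers were not used as pairs. Pseudocounts, filters, scalings, the fit without trend, the replicate block, subtraction of the other fraction's share and leaving out each library were tried.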

Additional observations from a re-analysis of the deposited data

Results flagged for a closer look

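For 8 of the 9 tested members the difference between monoculture and coculture itself differed between EpCAM+ and EpCAM- cells, by an interaction term in limma (Benjamini-Hochberg) that was called for 65.2% of all genes. The interaction is the log2 difference of monoculture from coculture in EpCAM+ cells minus that in EpCAM- cells. It was -3.92 ± 0.08 (SE) for Igfbp2, -2.52 ± 0.12 for Igfbp6 and 1.80 ± 0.10 for Igfbp3, the members with the widest differences. Igfbp2 was listed at 0 in all EpCAM+ libraries, so its value is that of EpCAM- cells alone. Like Igf1, Igfbp2 passed the filter only through monoculture EpCAM- cells. For Igfbp6 the EpCAM+ group means lay inside the range of stromal markers, with 2 of the 4 libraries outside it, 1 below and 1 above. The level of those markers also differed between the cultures in EpCAM+ cells. With the stromal share subtracted, the Igfbp6 interaction was -1.35 ± 0.25, with adjusted p = 0.00201 (limma). The interaction was -1.03 ± 0.08 for Igf1, on levels below 0.03 FPKM in all EpCAM+ libraries. It was 0.63 ± 0.08 for Igfbp5 and -0.58 ± 0.09 for Igfbp4, and both genes, like Igfbp6, had opposite signs of the culture difference in the 2 fractions. The smallest were -0.18 ± 0.04 for Igfbp7 and 0.13 ± 0.04 for Igf2r, with adjusted p of 0.00596 and 0.0254 (limma), and these did not pass under some of the alternatives.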

How the results depend on the processing

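Over 19 alternatives, 812 of 836 values for members kept their direction and their side of the threshold, and the number of members called stayed within 1.5 times in all comparisons. With the replicate number as a block, 9 members were called in monoculture, 8 in coculture, 5 between cultures in EpCAM+ cells, 8 in EpCAM- cells and 8 for the interaction, and the block changed no call. Signs turned only for values that were not called. Igf1 between cultures in EpCAM+ cells was -0.0039 without monoculture EpCAM+ replicate 2, and ran from there to 0.012 over the fits that left out a library. Igf1r between cultures in EpCAM- cells, at -0.0039, was 0.013 under the median of ratios, 0.052 without monoculture EpCAM- replicate 1 and 0.0080 without coculture EpCAM- replicate 1, with a lowest value of -0.059 without monoculture EpCAM- replicate 2. With the other fraction's share subtracted, 0 members changed at least 2-fold between cultures in EpCAM+ cells, and Igf1r there was 0.13 with adjusted p = 0.0442 (limma). The Igf2r interaction missed the threshold without trend and in 6 of 8 fits without a library, with values of 0.12 to 0.13 and adjusted p of 0.0503 to 0.0665 (limma). The Igfbp7 interaction missed it under quantile normalization (-0.07, adjusted p = 0.190, limma) and after subtraction (-0.08, adjusted p = 0.137, limma), and the Igf1r interaction passed under quantile normalization (0.24, adjusted p = 0.0121, limma). The causes were not tested. Where a library was left out, the lone library of its group was assumed to vary like the others. The depth of the libraries is unknown, so values of 0 carry no limit of detection.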

Other observations

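Nov, a CCN gene that is related to the binding proteins, had group means of 0 FPKM in monoculture EpCAM+ cells and 2.40 FPKM in monoculture EpCAM- cells, with 0.00643 FPKM in coculture EpCAM+ cells and 0.428 FPKM in coculture EpCAM- cells. Like Igfbp2 and Wisp2 it was higher in monoculture than in coculture EpCAM- cells, by 1.25 ± 0.05 on the log2 scale (SE), with limma adjusted p = 5.6e-07. Nov passed the filter through the monoculture EpCAM- libraries alone, so its test with that group is not independent of the filter. Nov was chosen after its values were seen. Pappa, which encodes the protease PAPP-A, was also chosen after its values were seen. It averaged 2.08 FPKM in EpCAM+ cells and 2.67 FPKM in EpCAM- cells in monoculture, and 1.38 FPKM in EpCAM+ cells and 4.21 FPKM in EpCAM- cells in coculture.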
